A study of Mus musculus with 4 samples.

Results

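The 32 genes described here are 18 genes of glycolysis and 14 genes known to be induced by low oxygen, picked by symbol from lists of known pathway genes, with earlier results of these data known. Of the 32, 31 have values among the 16305 genes of the series. Car9, a carbonic anhydrase induced in hypoxia, is in none of the gene lists of the 4 plates. The cells were sorted as cancer-associated fibroblasts from 4 untreated orthotopic APTKA tumours, grown in the colon of female mice of the strain C57BL6J, with 1 plate of 384 wells per tumour. All 4 tumours form a single group and are its replicates. The title of the series asks about inflammatory fibroblasts and therapy resistance in rectal cancer, but no treated sample enters here. The gate of the sort and the age of the mice are unstated in the labels. Whether each tumour came from a mouse of its own is unstated too, so p-values refer only to the tumours that entered each test. All 4 tumours entered only the comparison of smooth muscle and pericyte wells with fibroblast wells, and the other comparisons left out tumour 1. Of the labelled cell type, the markers were present in most wells but not in all: 612 of the 740 wells kept carried the collagen and Pdgfra markers of fibroblasts, and 67 carried markers of smooth muscle or pericytes.

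Glycolysis breaks glucose down to pyruvate in the cytosol, and lactate dehydrogenase turns the pyruvate into lactate, which leaves the cell through monocarboxylate transporters. In low oxygen, prolyl hydroxylases of the Egln family stop marking the Hif1a protein for destruction, and the stabilised factor switches on glucose transporters, glycolytic enzymes and secreted factors such as Vegfa. Hif1a is controlled mainly at the protein level, so its RNA is no direct measure of the factor's activity. In tumour stroma, both gene groups are known from activated fibroblasts and from wound tissue.

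Hypoxia-inducible factors bind a short core of letters, ACGTG or GCGTG, and promoter sequences of 5 members that the comparisons turn on are shown with every such core in capitals. The sequences are RefSeq promoters of GRCm38.p6, from 250 bases before to 50 bases after the annotated start, on the strand of the gene, and CACGT and CACGC are the same cores on the other strand. Slc2a1 lies at chr4:119108495-119108794 on the plus strand, Pgk1 at chrX:106186850-106187149 on the plus strand, Egln3 at chr12:54203825-54204124 on the minus strand, Ddit4 at chr10:59951721-59952020 on the minus strand and Adm at chr7:110627407-110627706 on the plus strand.
Slc2a1: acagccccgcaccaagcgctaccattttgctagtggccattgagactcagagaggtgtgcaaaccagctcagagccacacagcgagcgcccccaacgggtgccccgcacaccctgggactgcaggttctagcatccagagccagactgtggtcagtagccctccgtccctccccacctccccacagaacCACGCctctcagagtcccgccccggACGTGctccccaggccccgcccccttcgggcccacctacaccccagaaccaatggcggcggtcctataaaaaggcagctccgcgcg
Pgk1: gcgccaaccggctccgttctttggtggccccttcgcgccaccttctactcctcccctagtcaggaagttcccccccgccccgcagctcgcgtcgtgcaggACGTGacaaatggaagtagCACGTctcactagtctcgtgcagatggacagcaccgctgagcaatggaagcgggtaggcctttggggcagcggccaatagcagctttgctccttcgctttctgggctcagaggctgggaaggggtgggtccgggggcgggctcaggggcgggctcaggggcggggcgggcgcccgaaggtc
Egln3: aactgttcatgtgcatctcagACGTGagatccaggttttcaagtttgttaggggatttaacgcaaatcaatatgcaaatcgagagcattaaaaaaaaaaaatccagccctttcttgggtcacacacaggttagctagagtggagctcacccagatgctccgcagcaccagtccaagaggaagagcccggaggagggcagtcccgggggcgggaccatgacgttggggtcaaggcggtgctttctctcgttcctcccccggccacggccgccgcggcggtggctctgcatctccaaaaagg
Ddit4: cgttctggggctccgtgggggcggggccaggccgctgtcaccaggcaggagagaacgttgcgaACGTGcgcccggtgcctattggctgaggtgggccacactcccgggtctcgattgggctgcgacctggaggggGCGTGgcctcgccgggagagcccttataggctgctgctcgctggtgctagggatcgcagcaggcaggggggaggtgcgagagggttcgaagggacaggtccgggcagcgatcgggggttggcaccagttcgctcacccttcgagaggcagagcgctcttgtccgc
Adm: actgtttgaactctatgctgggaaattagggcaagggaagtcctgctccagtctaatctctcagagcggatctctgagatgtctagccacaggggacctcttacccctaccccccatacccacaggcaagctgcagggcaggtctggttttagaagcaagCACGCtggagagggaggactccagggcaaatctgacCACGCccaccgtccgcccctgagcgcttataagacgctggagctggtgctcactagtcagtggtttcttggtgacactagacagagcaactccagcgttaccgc

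Slc2a1, Pgk1, Ddit4 and Adm each hold 2 cores in this window and Egln3 holds 1. Searched on both strands, with overlapping matches counted on each, 24 of the 30 members with a listed promoter (80%) hold at least 1 core, 13 of 18 glycolytic and 11 of 12 hypoxia genes. Of all 27025 genes with a promoter of the same length, 43.8% hold one. The Vegfa window holds none. Only the first listed start of each gene was searched, and Vegfa, Hk1, Aldoa and Pkm, all without a core there, have further listed starts. Stc1 and Ndrg1 are named only. The positions of cores describe the letters of the genome and were not measured in these cells.

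The 4 plates gave 740 wells that reached 1000 transcripts with no more than 30% of them mitochondrial: 43 in tumour 1 and 250, 243 and 204 in tumours 2, 3 and 4. Median depth was 5552 transcripts per kept well in tumour 1 and 8108 to 9474 in the others. Tumour 1 was sequenced in another run and 43.95% of its transcripts were spike-ins, against 5.54 to 8.59% elsewhere. Wells were grouped by markers: 48 fibroblast wells with at least 3 cycling markers, and 564 non-cycling fibroblast wells, of which 72 were led by inflammatory markers (Il6, Cxcl1, Ccl2), 45 by contractile markers (Acta2, Tagln), 38 by wound-type markers (Mmp13, Mmp10, Mmp9, Inhba, Il11, Tnc), 61 by progenitor, 68 by lamina propria and 32 by telocyte markers. No list led in 248 wells. These groups are ranges of a marker score and not cell types, and 118 of the 564 wells (20.9%) lay near a boundary between them. Levels are given as transcripts per 10000 of the summed wells of a tumour, always in the order of tumours 2, 3 and 4 unless tumour 1 is named.

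In non-cycling fibroblast wells the 18 glycolytic genes together made up 24.4 ± 2.0 transcripts per 10000 (SD, n = 4 tumours), and the 14 hypoxia genes 9.12 ± 1.58. For the glycolytic genes the summed level was 23.1 in tumour 1 and 22.4, 26.7 and 25.4 in the others. For the hypoxia genes it was 6.98 in tumour 1 and 8.86, 10.4 and 10.2 in the others. Tumour 1 had the lowest hypoxia sum but not the lowest glycolytic sum, with Rn45s, a ribosomal RNA, counted in the totals. Rn45s made up 3.95% of the transcripts of kept wells in tumour 1 and 23.3, 10.7 and 10.2% in the others. Its part in level differences between tumours was not tested. The later steps of the pathway were detected in most wells. Pkm, the pyruvate kinase, was at 5.37 in tumour 1 and 4.51, 5.21 and 4.46 in the others. Ldha, the lactate dehydrogenase subunit that favours lactate, was at 2.86 in tumour 1 and 3.12, 4.76 and 4.61 in the others, so that tumours 3 and 4 stood above tumours 1 and 2. Pgk1, the phosphoglycerate kinase, was at 1.08 in tumour 1 and at 1.17, 1.55 and 1.66 in the others.

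At the entry of the pathway, Hk2 and Slc2a1 varied more between tumours than Pkm, Ldha and Pgk1 did. Hk2, the inducible hexokinase, was at 0.154 in tumour 1 and at 2.14, 1.14 and 1.19 in the others. Slc2a1, the glucose transporter GLUT1, was at 0.116 in tumour 1 and at 0.259, 0.313 and 0.650 in the others. Both were lowest in tumour 1, where they rest on 4 and 3 UMIs. That is the plate of the other run, so run and tumour cannot be told apart there. Among the hypoxia genes, Vegfa, the endothelial growth factor, was at 0.733 in tumour 1 and at 1.35, 1.24 and 1.18 in the others. Adm, which encodes the vasodilator peptide adrenomedullin, was at 1.62 in tumour 1 and at 1.06, 0.754 and 1.60 in the others. Ndrg1, a stress-responsive gene induced by hypoxia, was at 0.655 in tumour 1 and at 1.17, 1.34 and 1.86 in the others. Hif1a was at 0.810 in tumour 1 and 1.37, 0.948 and 0.985 in the others. Tumour 1 was lowest for Vegfa, Ndrg1 and Hif1a. It was highest for Adm, but 27 of its 42 Adm UMIs came from 1 wound-type well, and without that well its level was 0.730, under all other tumours.

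Some members were hardly measured. Eno1, the main enolase, had 2 UMIs in all non-cycling fibroblast wells and no entry in tumours 1 and 4. A near-identical copy, Eno1b, is annotated in the mouse genome, and the treatment of shared reads is not stated, so the level of enolase is uncertain. Gapdh, Aldoa, Ldha, Pgk1, Pgam1 and Mif also have annotated processed copies and carry the same uncertainty. Ankrd37, Pdk1 and Stc2 gave 17, 38 and 39 UMIs over the 535 non-cycling fibroblast wells of tumours 2 to 4.

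Members differed in how they were spread over wells, and both gene groups held even and uneven members. Had each gene's UMIs been spread over the 535 wells in proportion to depth, Stc1, which encodes the secreted hormone stanniocalcin, would have been seen in 63.3% of wells and was seen in 12.9% (69 wells). Its 941 UMIs lay mostly in few wells, with up to 217 in 1 well. Ddit4, an inhibitor of mTOR signalling, was seen in 16.9% of wells against 34.6% for an even spread, and Adm in 32.2% against 61%. Egln3, the oxygen-sensing prolyl hydroxylase, was seen in 16.5% against 28.5% and Vegfa in 43.6% against 65.6%. Among the enzymes, Pkm was seen in 86.7% of wells against 92.1%, Ldha in 81.3% against 89.9% and Pgam1 in 74.1% against 77.2%, while Hk2 (53.2% against 68.9%), Pfkp, a phosphofructokinase (33.2% against 43.7%), and Pfkfb3 (20.8% against 28.9%) were less even. Of the glycolytic genes, Slc2a1 (20.4% against 33.7%) and Slc16a1, a lactate transporter (17.9% against 29.2%), were the least even. Bnip3, a mitophagy receptor, and Mif, a cytokine, were hypoxia genes close to even, at 28.7% against 30.2% and 64% against 69%. Hif1a was seen in 51.3% against 61.5%, and Ero1l, an oxidase of the endoplasmic reticulum, in 27.1% against 32.5%.

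**Figure D1:**
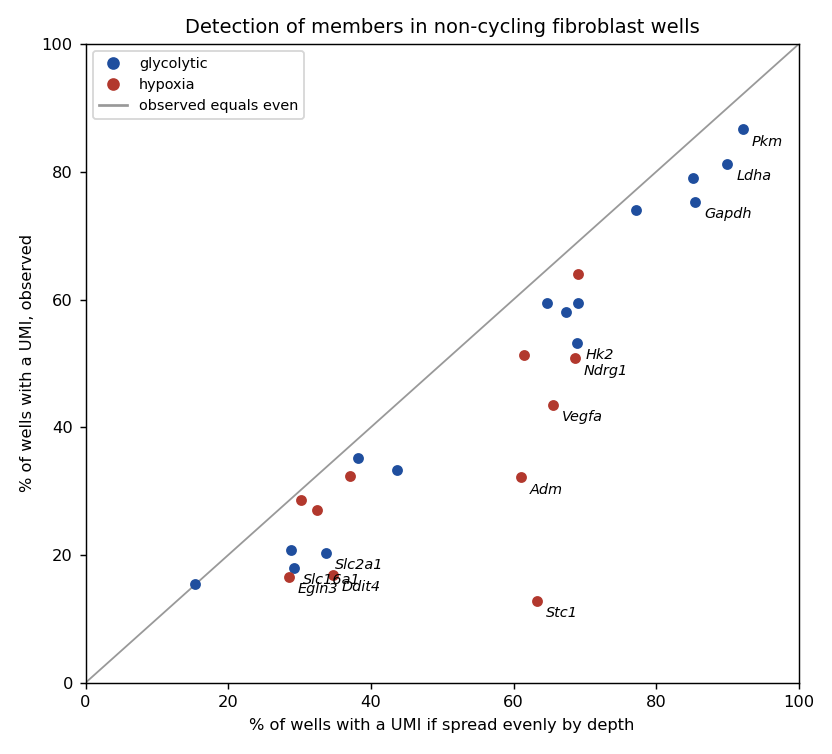
Each point is a member with at least 50 UMIs in the 535 non-cycling fibroblast wells of tumours 2 to 4. The vertical axis is the percentage of wells with a UMI, the horizontal axis the percentage for an even spread by depth, each a mean of 3 tumours, and the line marks equality. Stc1 lies farthest below the line, at 12.9% against 63.3%.

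Across wells within a tumour, the summed glycolytic and hypoxia levels went together weakly, with Spearman coefficients of 0.244 (29 wells of tumour 1), 0.419 (195 wells), 0.201 (192 wells) and 0.313 (148 wells). These are descriptions of wells that share a plate and differ in depth. The glycolytic sum went with a list of 22 genes of the citric acid cycle and respiratory chain about as closely, at 0.333, 0.395, 0.262 and 0.248. For the hypoxia sum against the same respiration list the coefficients were -0.005, 0.203, 0.220 and 0.059. Of 325 pairs of members, 1 had a mean within-tumour coefficient of at least 0.3, Aldoa with Gapdh at 0.314, and the median pair was at 0.0676.

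The groups of wells fell into different orders for the 2 sums. Among the fibroblast groups the mean glycolytic sum was highest in cycling wells, at 40.5, 41.7 and 35 transcripts per 10000, in contractile wells at 28.1, 44.5 and 34.3, and in wound-type wells at 31.4, 38.1 and 37.9. It was at 26.1, 24 and 28.5 in inflammatory wells and lowest among the named fibroblast groups in progenitor wells, at 17, 24.3 and 20.9. Cycling, contractile and wound-type wells overlapped in range. The hypoxia sum was highest in wound-type wells, at 19.1, 45.9 and 29.7, and every one of these was above the cycling wells at 18.3, 11.8 and 10.6. Without Stc1 the wound-type wells held 13.5, 15.5 and 16, and the cycling wells 17.9, 11.6 and 10.5, so that these 2 groups then overlapped. Inflammatory wells were at 10.8, 6.81 and 13.2 and progenitor wells between 5.26 and 7.21.

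**Figure D2:**
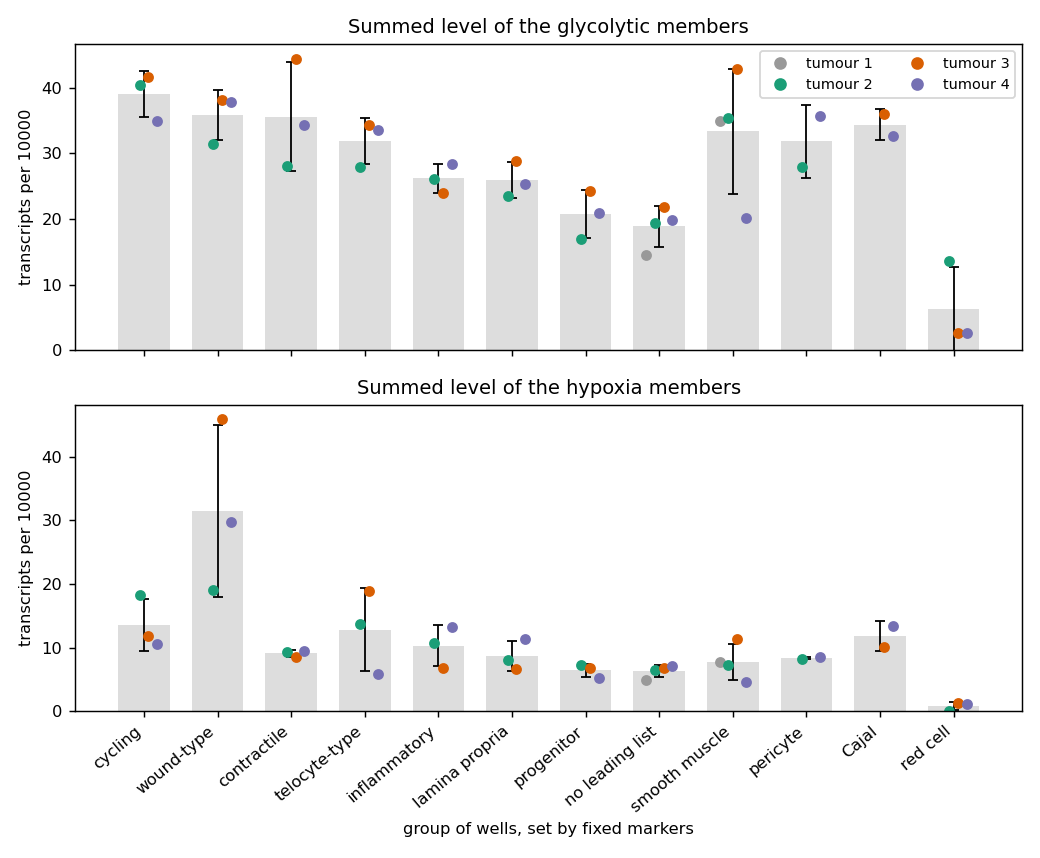
Bars are means over tumours of the summed level of the 18 glycolytic (top) and 14 hypoxia (bottom) genes in transcripts per 10000, points are tumours with at least 5 wells of the group, and error bars are SD. Wound-type wells had the highest hypoxia sum, 31.6 ± 13.5 (n = 3), while the glycolytic sums of wound-type, cycling and contractile wells overlapped.

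Wound-type wells were compared with all other non-cycling fibroblast wells of the same tumours. Stc1, Vegfa, Ddit4, Egln3 and the glucose transporter Slc2a1 rose in wound-type wells of all 3 tumours, and so did the glycolytic genes Pfkfb3, Gapdh, Pgk1 and Pkm, while Adm and Slc16a1 fell. In all, 9 of 27 members tested were higher and 2 lower, at an adjusted p under 0.05. Of all 8937 genes tested 12.8% were called, 4.91% higher and 7.93% lower. The glycolytic genes had 5 higher and 1 lower of 16 tested, with a median log2 fold change of 0.34, and the hypoxia genes 4 higher and 1 lower of 11, with a median of 0.38. Over all genes tested the median was -0.11.

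Stc1 was at 5.58, 30.4 and 13.7 transcripts per 10000 in wound-type wells and at 0.209, 0.537 and 0.0900 in the other wells. The 2 groups of values were far apart in every tumour, and the log2 fold change was 5.79 ± 0.32 (SE), with an adjusted p of 3.81e-15. This SE, like all others given with fold changes, was derived from the test statistic and is not the spread over tumours. Wound-type wells held 74 of 114, 480 of 589 and 221 of 238 Stc1 UMIs, although they were 10 of 195, 14 of 192 and 13 of 148 wells. The signal did not rest on a single well: 4 of 10, 11 of 14 and 6 of 13 wells had a UMI, and leaving out the highest well of each tumour left 3.71, 20.7 and 7.53 UMIs per 10000. Of 37 wound-type wells 21 had a Stc1 UMI, and of 34 thinned to 3000 UMIs each 19 did. In wells without a leading list the counts were 25 of 234 and, after thinning, 3 of 188, and in red cell wells, which should lack the gene, 3 of 37 and 0 of 7. Wells with smooth muscle or pericyte markers lay between, with 17 of 59 and, after thinning, 5 of 41. Median depths were 9002 to 11949 transcripts in wound-type wells, 6479 to 8307 in wells without a leading list and 1359 to 3025 in red cell wells. At equal depth the gene was thus seen in a larger share of wound-type wells than of the other groups.

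Vegfa was at 4.44, 6.43 and 2.40 in wound-type wells and at 1.14, 0.828 and 1.08 in the others, with a log2 fold change of 1.97 ± 0.26 (SE) and an adjusted p of 7.12e-07. Ddit4 was at 1.66, 0.997 and 2.40 against 0.366, 0.284 and 0.275, a log2 fold change of 2.32 ± 0.30 (SE) with an adjusted p of 4.35e-07. Egln3, itself a target of the factor that it marks for destruction, was at 1.20, 0.748 and 1.54 against 0.292, 0.240 and 0.207, a log2 fold change of 2.13 ± 0.35 (SE) with an adjusted p of 2.16e-05. None of these 3 genes overlapped between the groups. How many of all genes tested lacked overlap is not given here, for these or for the members below. In tumour 3, 8 of the 12 Egln3 UMIs of wound-type wells came from 1 well. Without it the level there was 0.278 UMIs per 10000, under that of the other wells of tumour 2.

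Adm moved the other way. It was at 0.452, 0.498 and 0.676 in wound-type wells and at 1.10, 0.774 and 1.68 in the others, lower in every tumour, with a log2 fold change of -1.18 ± 0.32 (SE) and an adjusted p of 0.00905. Tumour 1 had a single wound-type well and was not in the test, and there the direction was opposite, with Adm at 5.04 in that well against 0.730 in the others. The call was lost without tumour 2, with an adjusted p of 0.0866, and without tumour 4, at 0.14. Ndrg1 was at 0.527, 1.75 and 4.0 against 1.21, 1.3 and 1.68: it was lower in tumour 2 and higher in tumours 3 and 4, and its difference did not pass the test (adjusted p = 0.573). Hif1a was at 1.28, 1.68 and 1.35 against 1.37, 0.891 and 0.953 and did not pass either (adjusted p = 0.456).

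Of the glycolytic genes, Slc2a1, whose promoter is printed above, was at 0.527, 1.25 and 1.48 in wound-type wells and at 0.240, 0.240 and 0.579 in the others. It was higher within every tumour, with a log2 fold change of 1.57 ± 0.34 (SE) and an adjusted p of 9.48e-04. Of the 109 UMIs in the other wells of tumour 4, 55 came from 1 telocyte-type well, and without it the level there was 0.287, under every wound-type value. Without tumour 3 the adjusted p was 0.0865. Pfkfb3, which makes the activator of phosphofructokinase, was at 0.602, 1.12 and 0.676 against 0.272, 0.352 and 0.228, with a log2 fold change of 1.40 and an adjusted p of 0.008 (0.143 without tumour 3). In tumour 2, 5 of the 8 Pfkfb3 UMIs of wound-type wells came from 1 well, and without it the level there, 0.248, lay under that of the other wells. Gapdh was at 4.44, 6.73 and 7.26 against 2.37, 3.04 and 2.97, Pgk1 at 2.56, 3.43 and 2.71 against 1.07, 1.41 and 1.57, and Pkm at 7.84, 8.55 and 8.06 against 4.28, 4.95 and 4.15. These 3 enzymes did not overlap between the groups, and their log2 fold changes were 1.03 ± 0.21, 1.02 ± 0.23 and 0.78 ± 0.20 (SE), with adjusted p of 5.05e-04, 0.00181 and 0.00711.

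Other enzymes of the same pathway did not pass the test in wound-type wells. Ldha was at 2.41, 5.30 and 4.55 against 3.17, 4.71 and 4.62, with a log2 fold change of -0.16 and an adjusted p of 0.75. Hk2 was at 1.58, 2.12 and 0.860 against 2.18, 1.07 and 1.22, higher in tumour 3 and lower in the others. Aldoa, Tpi1, Pgam1, Gpi1, Hk1, Pfkl and Pfkp had log2 fold changes from -0.17 to 1.20. The lactate transporters lay on opposite sides, with only Slc16a1 called. Slc16a1 was at 0.151, 0.125 and 0 against 0.533, 0.186 and 0.355. Its log2 fold change was -2.05 ± 0.69 (SE), with an adjusted p of 0.0455. Its wound-type levels rest on very few transcripts. In tumour 2, 30 of its 104 UMIs in all non-cycling fibroblast wells came from 1 well. Slc16a3, the exporter, was at 0.451, 0.187 and 0.184 against 0.0627, 0.0489 and 0.0688 and did not pass (adjusted p = 0.0745). The Slc16a1 call was lost when any of the 3 tumours was left out, with adjusted p of 0.0571 to 0.347.

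**Figure D3:**
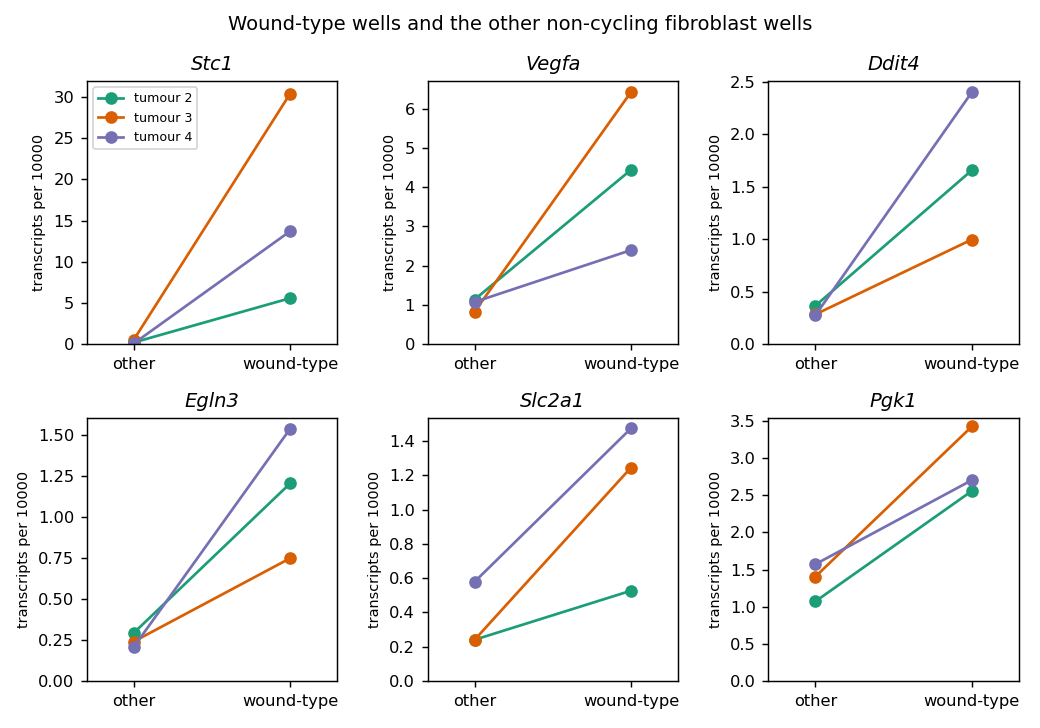
Each panel plots the level of 1 gene in transcripts per 10000, on an axis from 0, in the other non-cycling fibroblast wells and in wound-type wells, with a line for each of tumours 2, 3 and 4. All 18 lines rise, most steeply for Stc1 (up to 30.4 in tumour 3), and tumour 2 has the lowest wound-type level of Slc2a1, 0.527.

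Of further genes of these pathways outside the 32, 2 of 16 in other glycolysis rose and 1 fell. Bpgm, which diverts a glycolytic intermediate to bisphosphoglycerate, was at 2.41, 3.62 and 5.11 in wound-type wells against 0.277, 0.744 and 0.572, a log2 fold change of 2.74, and Ldhb, the other lactate dehydrogenase subunit, was at 0.451, 1.31 and 0.983 against 0.151, 0.240 and 0.222. Mpc2, part of the mitochondrial pyruvate carrier, fell by 1.53 on the log2 scale. Of 25 other hypoxia genes 1 rose, the collagen prolyl hydroxylase P4ha1 (2.03, 2.06 and 2.03 against 0.992, 1.04 and 0.852), and 2 fell, Igfbp3 and Bhlhe40. Of the respiration list 1 of 22 rose, Uqcrc1 of complex III, and of 7 pentose phosphate genes 1 rose, Taldo1.

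Values that moved with the wound-type group are these. Of 14 immediate early and heat shock genes known to respond to tissue dissociation, 12 were lower and 1, Ier3, higher, and their summed level was 124, 119 and 101 transcripts per 10000 in wound-type wells against 152, 195 and 185. Summed fibroblast markers had a median over wells of 326 per 10000 against 497. Pericyte markers had a median of 3.43 against 0.503, telocyte markers 5.45 against 0.398, contractile markers 29 against 11.4 and progenitor markers 4.32 against 35.5. Markers of endothelial, epithelial and immune cells had medians of 0 in both. Median depth per well was 11949, 11133 and 9002 transcripts against 8000, 8385 and 10181. The part of the dissociation genes and of these marker lists in the differences was not tested. With both groups limited to wells between the 10th and 90th percentile of depth of the wound-type wells of a tumour, median depths were 11949, 11133 and 9002 against 12192, 8024 and 9872, and 10 members were higher and 0 lower. Fewer cells with a transcript and less RNA in each cannot be told apart in the summed levels.

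Cycling fibroblast wells were compared with non-cycling ones in tumours 2, 3 and 4. In cycling wells Pgam1, Pkm and the lactate exporter Slc16a3 rose among the glycolytic genes and Ddit4, Bnip3 and Hif1a among the hypoxia genes. That was 6 higher and 0 lower of 28 members tested by edgeR (4 and 1 by DESeq2), where 1.74% of all 9848 genes tested were called, 1.02% higher and 0.721% lower. At an unadjusted p under 0.05 in either direction there were 8 of 17 glycolytic and 9 of 11 hypoxia genes, against 14.6% of all genes tested. The glycolytic genes had 3 of 17 called and a median log2 fold change of 0.49, the hypoxia genes 3 of 11 and a median of 0.84, and all genes a median of -0.02.

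Slc16a3 was at 0.732, 0.415 and 0.312 transcripts per 10000 in cycling wells and at 0.0879, 0.0590 and 0.0780 in non-cycling wells, a log2 fold change of 2.65 ± 0.35 (SE) with an adjusted p of 0.00909. Pkm was at 8.51, 10.2 and 7.48 against 4.51, 5.21 and 4.46 and Pgam1, the phosphoglycerate mutase, at 4.09, 4.36 and 3.61 against 1.84, 1.95 and 2.21. Neither enzyme overlapped between the groups, with log2 fold changes of 0.85 ± 0.16 and 0.98 ± 0.19 (SE) and adjusted p of 0.0322 and 0.0349. Ddit4 was at 1.76, 1.06 and 1.48 against 0.450, 0.336 and 0.444, with a log2 fold change of 1.77 ± 0.21 (SE) and an adjusted p of 0.00761. Its UMIs came from 17 of 23, 2 of 10 and 4 of 14 cycling wells. With these wells thinned to equal depth, 10 of 23, 2 of 10 and 0 of 14 had a Ddit4 UMI. The Ddit4 levels of cycling wells in tumours 3 and 4 thus rested on few wells. Bnip3 was at 0.790, 0.679 and 0.908 against 0.288, 0.313 and 0.409, and Hif1a at 2.91, 1.78 and 1.96 against 1.37, 0.948 and 0.985. Both were higher in every tumour without overlap, with log2 fold changes of 1.23 ± 0.23 and 0.98 ± 0.18 (SE) and adjusted p of 0.0301 and 0.0344. Over 15 alternatives Hif1a lost its call in 7, and Bnip3 lost it in 5 and changed sign in 1, with adjusted p up to 0.371 and 0.74. In tumour 3, 29 of the 47 Hif1a UMIs of cycling wells came from 1 well, without which the level there was 0.832, under that of the non-cycling wells.

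The remaining enzymes gave values without a call. Pgk1 was at 3.32, 2.68 and 2.27 in cycling wells against 1.17, 1.55 and 1.66 (adjusted p = 0.106), and Ldha at 4.90, 6.74 and 6.0 against 3.12, 4.76 and 4.61 (adjusted p = 0.2). Slc2a1 was at 0.943, 0.680 and 0.595 against 0.259, 0.313 and 0.650, with no call (adjusted p = 0.244). It was higher in tumours 2 and 3, and in tumour 4 the order rested on 1 telocyte-type well with 55 of the 133 UMIs of the non-cycling wells, without which their level was 0.382 and the cycling wells lay above it. Vegfa was at 4.54, 2.19 and 1.25 against 1.35, 1.24 and 1.18 (adjusted p = 0.189), with most of the difference in tumour 2. Adm was at 0.330, 1.06 and 0.510 against 1.06, 0.754 and 1.60 and Ndrg1 at 0.967, 0.642 and 0.766 against 1.17, 1.34 and 1.86. Adm was lower in tumours 2 and 4 and Ndrg1 in all 3, and neither passed the test (adjusted p = 0.277 and 0.15). Of the other lists, 2 of 28 further hypoxia genes rose, Car12 and Lox, and none of 18 further glycolytic, 22 respiration or 7 pentose phosphate genes was called by edgeR, with 2, 6 and 1 at an unadjusted p under 0.05, where 14.6% of all genes were.

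Cycling wells were the deepest, with medians of 31969, 24502 and 25708 transcripts against 8461, 8441 and 10029, and a marker is more easily seen in a deep well. The summed dissociation genes were at 83.7, 149 and 138 transcripts per 10000 in cycling wells against 150.3, 189.5 and 178, with 1 of 14 called lower, and their part in the differences was not tested. Wound-type markers had a median over wells of 12.5 transcripts per 10000 in cycling wells against 2.82, contractile markers 27.5 against 12.1 and progenitor markers 15.4 against 33.5, and their part was not tested either. Of the 48 cycling wells 23 had exactly 3 markers, and 76 wells had 2. Limited in the same way to the depth range of cycling wells, non-cycling wells still had lower medians, 14122, 19452 and 18602, and 2 members were higher and 1 lower. Depth was not matched by this limit. Without tumours 2, 3 or 4 in turn 1, 10 and 0 were higher. The stricter marker cut raised the cuts for other cell types, leading lists and cycling together, and only tumours 2 and 4 could then be compared. Under it Bnip3 changed sign, to -0.33, and 2 members were higher and 3 lower.

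Contractile and inflammatory wells, both non-cycling, were compared directly. Hk2 and Ndrg1 were lower in contractile wells, and no member was called higher by edgeR or by DESeq2. This was 0 higher and 2 lower of 23 members tested, while 5.89% of 4718 genes were called, 1.67% higher and 4.22% lower. At an unadjusted p under 0.05 in either direction there were 5 of 13 glycolytic and 2 of 10 hypoxia genes, against 16.8% of all genes tested. Hk2 was at 1.58, 0.802 and 1.03 in contractile wells and at 4.20, 1.48 and 2.34 in inflammatory wells, a log2 fold change of -1.37 ± 0.28 (SE) with an adjusted p of 0.0149. Ndrg1 was at 0.443, 0.0891 and 1.23 against 1.84, 1.23 and 2.5, a log2 fold change of -1.89 ± 0.39 (SE) with an adjusted p of 0.0166. Both were lower within each tumour, and for both genes the highest contractile value lay above the lowest inflammatory one. The contractile Ndrg1 levels rest on 7, 1 and 24 transcripts.

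The median log2 fold change was 0.22 over 13 glycolytic genes, -0.23 over 10 hypoxia genes and 0.01 over all genes. Pkm was at 6.27, 8.93 and 7.47 in contractile wells against 4.18, 3.98 and 4.35, without overlap but also without a call (adjusted p = 0.163). Pgk1 was at 1.71, 2.14 and 2.42 against 1.25, 1.29 and 1.77 (adjusted p = 0.572), Ldha at 3.92, 5.98 and 4.68 against 3.91, 5.41 and 5.97 (adjusted p = 0.675) and Slc2a1 at 0.632, 0.446 and 0.257 against 0.410, 0.162 and 0.50 (adjusted p = 0.954). Slc2a1 was higher in contractile wells of tumours 2 and 3 and lower in tumour 4. Vegfa was at 1.52, 1.78 and 1.18 against 1.59, 0.762 and 2.30, Adm at 1.96, 0.0891 and 0.771 against 0.964, 1.46 and 3.18, and Hif1a at 1.83, 0.980 and 1.23 against 2.17, 0.831 and 1.42, all 3 with tumours in both directions and no call (adjusted p = 0.873, 0.377 and 0.689).

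Among the other lists Angptl4, a secreted regulator of lipoprotein lipase in the list of further hypoxia genes, fell in contractile wells, and so did G6pdx, the entry enzyme of the pentose phosphate pathway (1 of 5). Of the 14 dissociation genes 5 fell, with sums of 89.6, 166 and 105 against 148, 233 and 180. Median depth was 6677, 6824 and 9052 transcripts in contractile against 11980, 19233 and 16971 in inflammatory wells. Limited to the depth range of contractile wells, inflammatory wells still had higher medians, 10652, 9142 and 11948, and no member was called, with an adjusted p of 0.0747 for Hk2 and 0.0717 for Ndrg1, and leaving out 1 tumour at a time left 0 to 1 lower calls.

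Mural wells, set by smooth muscle or pericyte markers, were compared with non-cycling fibroblast wells in all 4 tumours. In mural wells Adm, Ndrg1, Vegfa and Hk2 were lower and Gapdh was higher. That was 1 higher and 4 lower of 22 members tested, where 15.9% of 4675 genes were called, 6.61% higher and 9.3% lower. The median log2 fold change was 0.31 over 12 glycolytic genes, -0.09 over 10 hypoxia genes and -0.02 over all genes.

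Adm was at 0.108, 0.103, 0.252 and 0.137 transcripts per 10000 in mural wells of tumours 1 to 4 and at 1.62, 1.06, 0.754 and 1.60 in fibroblast wells. The groups were far apart, with a log2 fold change of -3.07 ± 0.42 (SE) and an adjusted p of 6.19e-04. Of 59 mural wells in tumours 2 to 4, 5 had an Adm UMI. Ndrg1 was at 0.108, 0.0516, 0.555 and 0.273 against 0.655, 1.17, 1.34 and 1.86, a log2 fold change of -2.55 ± 0.44 (SE) with an adjusted p of 0.00235 and no overlap. Vegfa was at 0.753, 0.206, 0.202 and 0.137 against 0.733, 1.35, 1.24 and 1.18: the levels were alike in tumour 1 and lower in mural wells of the other 3, with a log2 fold change of -2.27 ± 0.47 (SE) and an adjusted p of 0.00704. Without tumour 2, 3 or 4 the Vegfa call was lost, at adjusted p of 0.0634, 0.0552 and 0.0668. The mural levels rest on few transcripts, 1, 2, 5 and 2 for Adm and 1, 1, 11 and 4 for Ndrg1. For Vegfa they rest on 7, 4, 4 and 2.

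Hk2 was at 0.215, 0.412, 0.353 and 0.137 in mural wells against 0.154, 2.14, 1.14 and 1.19, again with tumour 1 apart from the others, and its log2 fold change was -2.28 ± 0.41 (SE) with an adjusted p of 0.0031. Its mural levels rest on 2, 8, 7 and 2 transcripts, and its fibroblast level in tumour 1 on 4 UMIs. Gapdh was at 8.30, 5.84, 7.02 and 6.43 against 3.21, 2.51, 3.31 and 3.31, without overlap, a log2 fold change of 0.95 ± 0.20 (SE) with an adjusted p of 0.00826. Without tumour 3 its adjusted p was 0.0506. Pkm was at 11.6, 6.82, 8.54 and 7.18 against 5.37, 4.51, 5.21 and 4.46 and did not pass (adjusted p = 0.0945). Pgk1 was at 1.72, 1.81, 2.32 and 1.98 against 1.08, 1.17, 1.55 and 1.66, and Ldha at 3.66, 3.92, 6.53 and 4.30 against 2.86, 3.12, 4.76 and 4.61. Neither passed (adjusted p = 0.389 and 0.905), nor did Slc2a1 at 0.538, 0.361, 0.403 and 0.478 (0.845) or Hif1a at 0.754, 1.60, 1.97 and 0.887 (0.807).

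**Figure D4:**
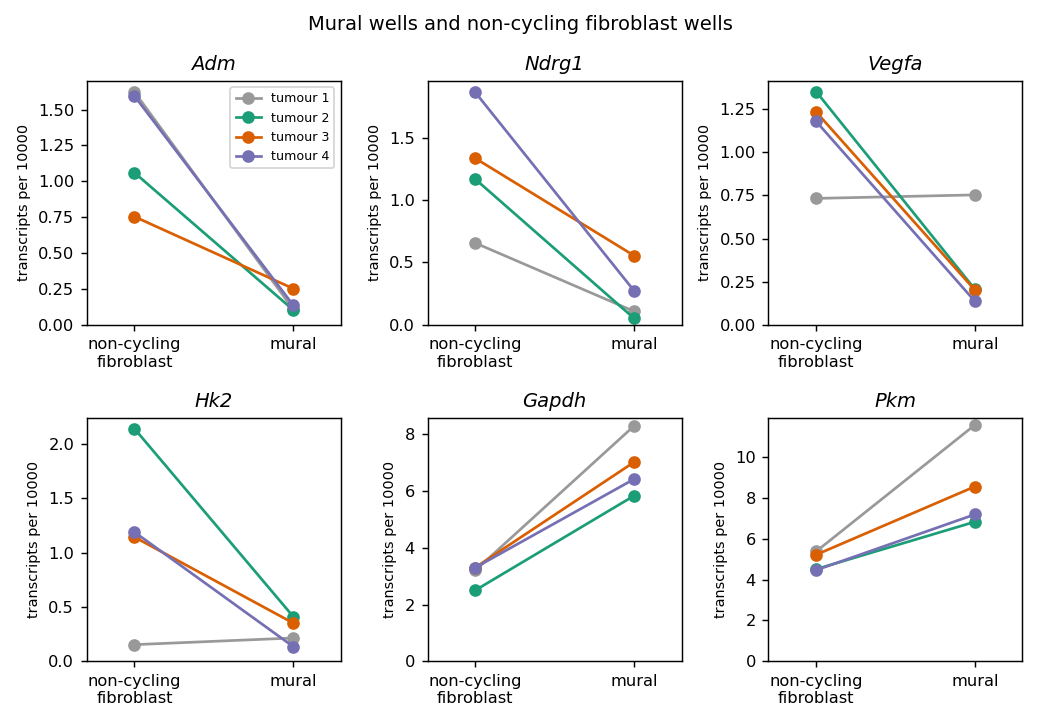
Each panel plots the level of 1 gene in transcripts per 10000, on an axis from 0, in non-cycling fibroblast wells and in mural wells, with a line for each of the 4 tumours. Adm and Ndrg1 fall in all 4 tumours and Gapdh and Pkm lie higher in mural wells, while the lines of tumour 1 are nearly flat for Vegfa (0.733 and 0.753) and Hk2 (0.154 and 0.215). The Hk2 points of tumour 1 rest on 4 UMIs in fibroblast wells and 2 transcripts in mural wells.

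Mural wells carried other genes of the same pathways. Slc2a4, the insulin-responsive glucose transporter GLUT4, was at 1.51, 0.361, 1.11 and 0.341 in mural wells and at 0.0771, 0, 0.00907 and 0 in fibroblast wells (1 of 8 further glycolytic genes higher, 1, Bpgm, lower). Of 20 further hypoxia genes 4 rose and 2 fell. Ndufa4l2, a mitochondrial protein known from pericytes, was at 1.08, 3.15, 1.72 and 3.28 against 0.0771, 0.103, 0.0726 and 0.0585, a log2 fold change of 4.76. Cox4i2, a hypoxia-responsive subunit of cytochrome c oxidase, was at 0.538, 0.722, 0.302 and 0.751 against 0.116, 0.0147, 0.0318 and 0.00974, and Epas1, the sister factor of Hif1a, at 3.34, 7.02, 3.69 and 10.1 against 2.39, 0.659, 1.09 and 0.809. All were higher in every tumour, while Igfbp3 and Lox, an enzyme that cross-links collagen, fell.

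Of the respiration list 2 of 22 rose in mural wells, Atp5b and Cox5b, and its summed level was 46.5, 34.7, 41.6 and 39.4 transcripts per 10000 against 29.1, 18.9, 26 and 25.5. The dissociation genes summed to 80.5, 99.6, 103 and 134 in mural wells against 38.6, 150.3, 189.5 and 178, with 2 of 14 called lower, and their part was not tested. Summed fibroblast markers had a median over mural wells of 202 per 10000, and the median depth was 12627, 5527, 6125 and 4962 transcripts against 5552, 8461, 8441 and 10029. Limited to the depth range of mural wells, fibroblast wells had medians of 5851, 7500, 7245 and 8216, still unequal to those of mural wells. Gapdh was then no longer called, with an adjusted p of 0.0909, and the 4 lower calls stood. Leaving out tumour 1, the plate of the other run, gave 4 higher and 5 lower calls.

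**Figure D5:**
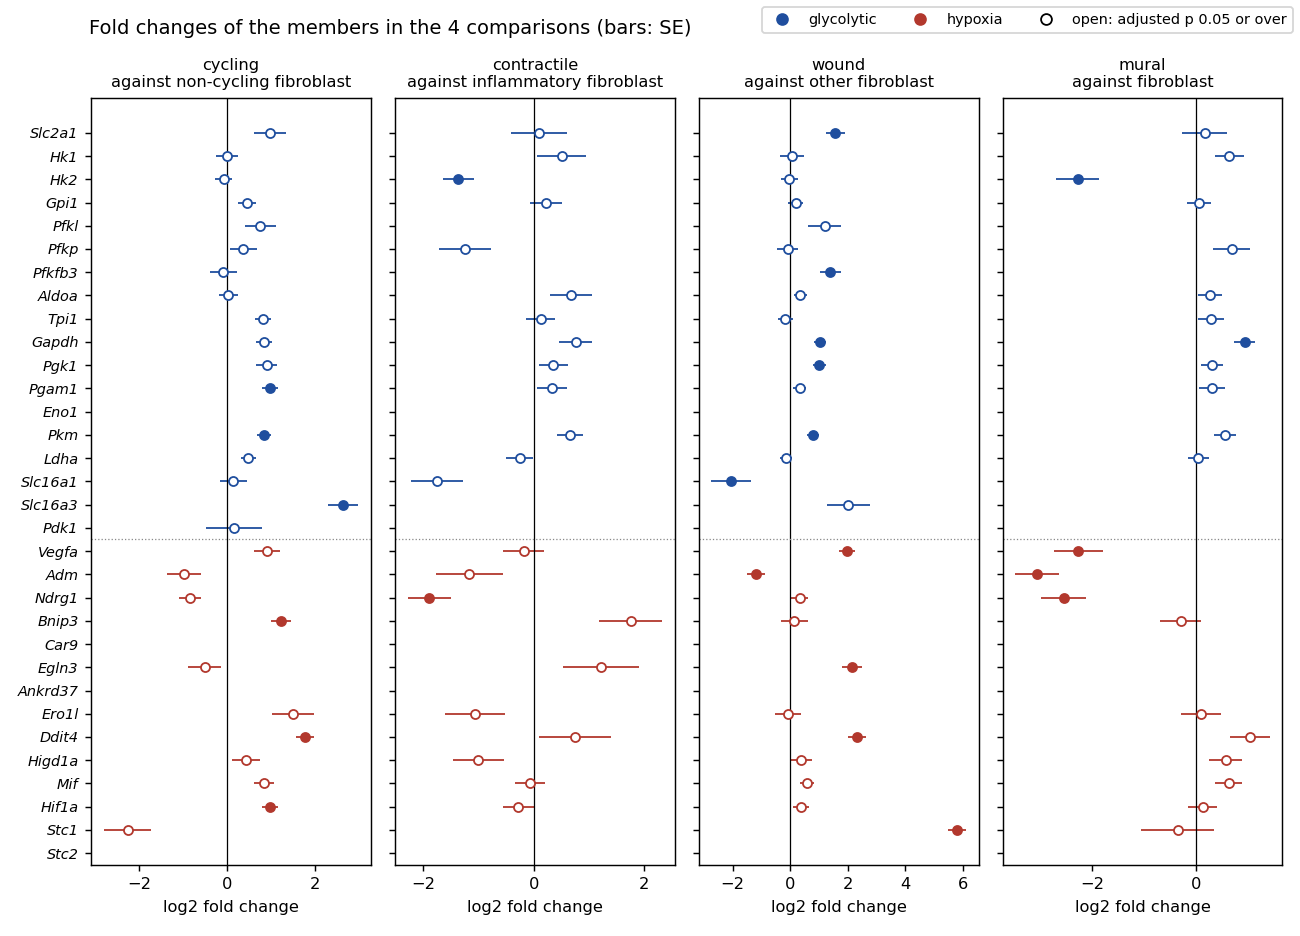
Each panel is 1 comparison, with the log2 fold change of each tested member on the horizontal axis, bars for the SE, filled points for an adjusted p under 0.05 and no point where a member was not tested. Stc1 stands at 5.79 in wound-type wells, and Adm lies under 0 in all 4 panels but is filled only for wound-type and mural wells.

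Telocyte-type wells, which were not tested, carried high values of Stc1 in tumours 2 and 3 and of Slc2a1 in tumour 4. These came almost wholly from single wells. Stc1 was at 3.52, 5.86 and 0.124 transcripts per 10000, but 24 of its 25 UMIs in tumour 2 and all 78 in tumour 3 lay in 1 well each. For Slc2a1 the levels were 0, 0.596 and 6.87, and all 55 UMIs of tumour 4 came from 1 well, which held 55 of the 133 Slc2a1 UMIs of that tumour's non-cycling fibroblast wells. Hk2 was at 3.79, 1.49 and 1.49 in telocyte-type wells and was seen more widely, with a UMI in 6 of 10, 5 of 11 and 6 of 8 wells.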

How the data were processed

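Single wells of 4 plates were measured by SORT-seq with CEL-Seq2 libraries, per the labels. BWA and mm10 were used, per the submitters' processing notes; for the counting program, versions and annotation, the sources used here name none. Values deposited by the authors are expected counts, that is estimates of the transcripts of a gene in a well, each within 0.00486 of a whole number of UMIs (unique molecular identifiers) corrected for 4096 possible ones, as tested on all values above 0. Well numbers are the same on every plate. Plates differed from each other, with a chi-square per degree of freedom of 5.15 to 45.8 over genes, so none was a copy. No doublet caller was run.

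Spike-ins were left out. A well was a non-fibroblast type with at least 3 of its markers and 20 transcripts per 10000 of them (red cells 2 and 200), a fibroblast with at least 3 and 40, and cycling with at least 3 cycling markers. Other fibroblast wells took the list with the highest within-tumour z of at least 1. This scoring rule was set after the data had been seen, and members and lists were chosen with earlier results of these data known. Wells within 0.25 of a cut counted as near it.

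Counts were summed per tumour and group with at least 5 wells of both, rounded, and compared with edgeR 4.0.16 (R 4.3.3; quasi-likelihood, TMM, filterByExpr, the tumour as block, Benjamini-Hochberg over all genes but the markers), in 4 comparisons with 2 or 3 residual degrees of freedom. The block rests on groups coming from the same tumour. Each SE of a fold change is the absolute log2 fold change divided by the square root of its quasi-likelihood F statistic. Values per tumour are given for members called and for Slc2a1, Ldha, Pgk1, Pkm, Adm, Ndrg1, Vegfa and Hif1a in any case, and up to 3 called genes per further list, comparison and direction are named, except 1 that is not reported here. Leaving out the highest well of a gene in 1 group was chosen after seeing the data. The fit, tested on simulated data, recovered 78, 77, 58 and 88% of genes changed by 2 on the log2 scale in the cycling, contractile, wound-type and mural comparisons, and 31, 22, 14 and 30% of those changed by 1. In the same order, 14, 7, 2 and 6 unchanged genes were called falsely. The simulated counts held no differences between tumours other than depth, unlike the data. Alternatives were DESeq2 1.42.0, RLE scaling, no filter on low counts, whole UMIs, no block, stricter and looser marker cuts, wells of at least 2000 transcripts, at most 20% mitochondrial transcripts, at least 10 wells per sum and leaving out each tumour.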

Additional observations from a re-analysis of the deposited data

Results flagged for a closer look

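Gapdh in the non-cycling fibroblast wells was the only 1 of 55 gene and group combinations with 4 tumours in which a single tumour stood far from the rest. It was at 2.507 transcripts per 10000 in tumour 2 and between 3.21 and 3.31 in the other 3, a gap of 0.869 of the whole range. Chance alone marks about 1 in 20 groups in this way. Levels count Rn45s, a ribosomal RNA, in the total. It made up 23.3% of the transcripts of kept wells in tumour 2 and 3.95, 10.7 and 10.2% in tumours 1, 3 and 4. Its part in the Gapdh gap was not tested.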

How the results depend on the processing

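Of 364 recomputed values of the 24 member calls, 295 kept direction and side of the threshold and 68 kept direction but lost the call. The remaining 1 changed sign: Bnip3 in cycling wells, -0.33 under the stricter marker cut, where only tumours 2 and 4 could be compared. These counts include repeats. With at least 10 wells per sum, the cycling, contractile and wound-type fits used the same wells as the main fit. The mural fit there left out tumour 1 only, as did the fit without that tumour. In all settings that could be run, Stc1, Ddit4, Egln3, Vegfa and Gapdh remained called in wound-type wells and Adm, Ndrg1 and Hk2 in mural wells. For cycling wells, 6 higher and 0 lower calls became 13 and 3 with no low-count filter, 3 higher with no replicate block, 1 lower with DESeq2, 2 and 3 under the stricter cut, 2 higher under the looser cut, 3 higher without wells near a cut and 2 and 1 in wells limited to the depth range of the first-named group. Leaving out a tumour gave 0 to 10 higher and 0 to 2 lower calls. For contractile against inflammatory wells, 2 lower calls became 4 with no filter, 1 with DESeq2 and 0 with no replicate block, under the looser cut or with the depth limit. Leaving out a tumour gave 0 to 1 higher and 0 to 1 lower. For wound-type wells, 9 higher calls became 14 under the stricter cut, and 2 lower calls became 0 with no replicate block, with DESeq2 or with the depth limit, and 1 under the looser cut or without wells near a cut. Leaving out a tumour gave 7 to 9 higher and 0 to 1 lower. For mural wells, 1 higher call became 0 under the stricter cut or with the depth limit, 2 under the looser cut and 4 with at least 10 wells per sum. Leaving out a tumour gave 0 to 4 higher and 3 to 5 lower. The settings on wells near a cut and on the depth range were added after seeing the data. Fits without a tumour had 1 or 2 residual degrees of freedom and less power, and with no filter more members were tested. Beyond that the cause was not tested.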
